A study of Mus musculus with 16 samples.

Results

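The genes examined here are the neurotransmitter receptor families of the mouse, measured by RNA-seq in mature and immature medullary thymic epithelial cells (mTEC). They were chosen by name alone, as the Ensembl genes whose symbol begins with the family prefix of the GABA-A, glycine, ionotropic and metabotropic glutamate, nicotinic, muscarinic, serotonin, dopamine or adrenergic receptors. Antisense entries and pseudogenes were dropped by their suffix, which removed 2 rows (Chrna1os and Grin1os). This left 100 of the 53464 Ensembl genes in the count table, all of them protein-coding. The set holds 19 GABA-A, 19 ionotropic glutamate, 16 nicotinic, 14 serotonin, 9 adrenergic, 8 metabotropic glutamate, 5 muscarinic, 5 glycine and 5 dopamine genes. One of them, Grid2ip, encodes a scaffold protein that binds the delta glutamate receptor and was matched by its name, so that 99 genes encode receptors or receptor subunits.

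GABA-A, glycine, ionotropic glutamate, nicotinic and Htr3 serotonin receptors are ion channels built from several subunits, whereas metabotropic glutamate, muscarinic, dopamine, adrenergic and the other serotonin receptors signal through G proteins. Most are best known from neurons, and the nicotinic receptor of skeletal muscle opens in response to acetylcholine released at the neuromuscular junction. mTEC transcribe many genes of other tissues and present the resulting peptides to developing T cells, and mature mTEC express Aire, which promotes much of this transcription. Chrna1, the alpha subunit of the muscle receptor, carries the main target of the autoantibodies of myasthenia gravis.

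The study asked what the splicing factors RBFOX1 and RBFOX2 do in mTEC. All mice carried 2 floxed alleles, Rbfox1 lox/lox in the Rbfox1 line and Rbfox2 lox/lox in the Rbfox2 line. Thymus knockouts (tKO) had Foxn1 wildtype/cre, with Cre expressed from the Foxn1 locus of thymic epithelium, and controls had Foxn1 wildtype/wildtype. No mouse without floxed alleles was in the series. Each line gave 2 tKO and 2 control mice, and each of these 8 mice gave 1 mature (MHCII high) and 1 immature (MHCII low) library of 10000 sorted CD45- EpCAM+ Ly51- UEA+ cells. The mice were 4 to 6 weeks old and labelled C57BL/6, while the methods give these floxed lines a mixed background. Mice of the Rbfox1 line are numbered 2 and 3 and those of the Rbfox2 line 1 and 2. Values of 4 libraries are always given in that order, so that the first pair is the Rbfox1 line and the second pair the Rbfox2 line. In the Rbfox1 line the mice numbered 2 were female and those numbered 3 male. In the Rbfox2 line those numbered 1 were male and those numbered 2 female. Each set of 2 mice of 1 line and genotype thus held 1 female and 1 male, so sex and mouse cannot be told apart there.

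Mature libraries held 3737884 to 4636367 counts and immature libraries 1506134 to 2430287. Rbfox2 counts were 35 to 70 in Rbfox2 tKO and 231 to 247 in control mature libraries, and 34 to 54 against 157 to 195 in immature ones. Rbfox1 counts were 126 to 156 in Rbfox1 tKO and 225 to 247 in control mature libraries, and 299 to 327 against 381 to 391 in immature ones. In CPM (counts scaled to a common library size by TMM, which corrects for library composition) Rbfox1 was at 32.5 ± 3.18 against 51.3 ± 2.85 in mature and at 148 ± 2.41 against 161 ± 1.74 in immature libraries (SD, n = 2), so that the immature Rbfox1 tKO libraries were only slightly lower in this gene than their controls. Among markers, Epcam had 622.5 ± 23.5 CPM in mature and 757 ± 29.1 in immature control libraries (SD, n = 4), Aire 1047 ± 455 and 147 ± 130, and Krt5, a keratin of medullary epithelium, 576 ± 140 and 4064 ± 671. Of 3 markers of immature mTEC, 1 was called higher in immature control libraries, Ackr4 at 45.9 ± 18.5 CPM against 5.26 ± 1.88 in mature ones. Krt15 was not called and went the other way, at 28.5 ± 3.42 CPM in immature and 39.4 ± 6.11 in mature control libraries. Ccl21a was not tested and had 16 counts over all 16 libraries. Markers of other cells differed between the populations too. In control mice 5 of 7 tested neuron, 5 of 5 glia and 3 of 3 thymocyte and blood markers were higher in mature libraries, with summed levels of 781 to 826, 146 to 175 and 49.0 to 58.6 CPM against 382 to 419, 43.1 to 60.9 and 3.41 to 23.3 in immature ones. Of the markers in all lists, 1 (Neurod1) was at 0 in all 16 libraries. The part of such cells in the receptor values was not tested.

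Far more receptor genes were detected in mature than in immature mTEC. After every library was thinned at random to 1506134 counts, the depth of the smallest, 83 to 92 of the 100 genes had at least 1 count in the mature libraries (87.9 ± 2.95, SD, n = 8) and 43 to 52 in the immature libraries (47.4 ± 3.11, n = 8). The mature library held more of them in each of the 8 mice, by 31 to 45 genes and by 40.5 on average. Over all Ensembl genes, 41.3% had a count in the mature and 34.5% in the immature libraries at the same depth. In all 8 mature libraries 65 of the genes were found and in all 8 immature libraries 27, while 29 were found in no immature library. At full depth 99 genes had a count in some mature library and 78 in some immature library. Gabre, the epsilon subunit of the GABA-A receptor, had 0 counts in all 16 libraries.

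**Figure D1:**
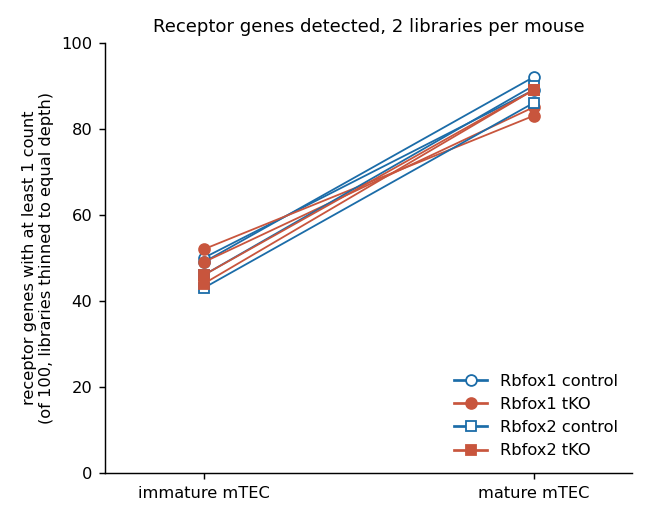
Number of the 100 receptor genes with at least 1 count (y axis) in the immature and mature library of each mouse (x axis), after thinning to 1506134 counts. Each line joins the libraries of 1 mouse, open symbols are control and filled symbols tKO mice, circles the Rbfox1 and squares the Rbfox2 line. The 8 mature libraries lie between 83 and 92 and the 8 immature ones between 43 and 52.

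Detection differed between families. Of the 16 nicotinic genes, 14 were found in all 8 thinned mature libraries and 7 in all 8 immature ones. For the 19 ionotropic glutamate genes these numbers were 15 and 5, for the 19 GABA-A genes 12 and 3, and for the 8 metabotropic glutamate genes 6 and 2. The 9 adrenergic genes were close to even, with 6 and 5, and the 5 muscarinic genes even, with 2 and 2. Of the 14 serotonin genes 8 were found in no thinned immature library, and of the 5 glycine genes 4.

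The summed level of the 100 genes was higher in mature than in immature mTEC in every mouse. In control mice the mature libraries had 1084 to 1222 CPM and the immature ones 317 to 384, with means of 1140.1 ± 60.4 and 352 ± 33.3 (SD, n = 4). In tKO mice the ranges were 1039 to 1202 and 317 to 362. A few genes made up much of these sums. Htr7, a serotonin receptor that raises cAMP, gave 18.4% and Grin2c, an NMDA receptor subunit best known from the cerebellum, 15.98% of the control mature sum, and the top 5 genes gave 48.4%. In immature control libraries Htr7 gave 28.9% and Gabrp, the pi subunit of GABA-A receptors found in epithelia outside the brain, 9.54%.

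**Figure D2:**
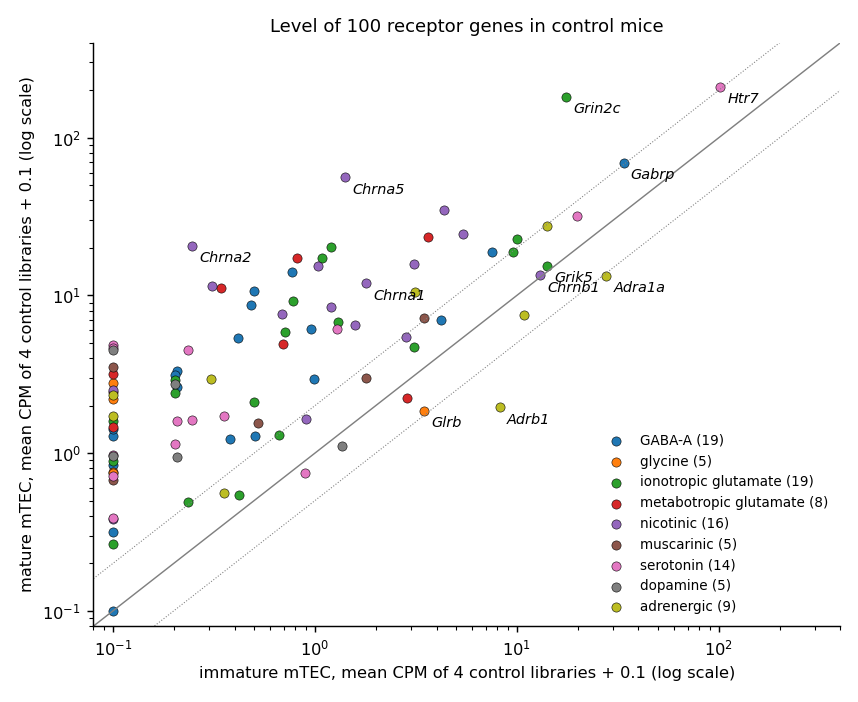
Mean CPM of the 4 mature control libraries (y axis) against the mean CPM of the 4 immature control libraries (x axis), both plus 0.1 on log scales, for the 100 genes coloured by family, with the size of each family in brackets. The solid line marks equal levels and the dotted lines a 2-fold difference. Most points lie above the upper dotted line, Htr7 and Grin2c are highest, and Adra1a and Adrb1 lie below the lower one.

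Scaled to exon length, the order of levels was similar at the top. In control mature libraries Htr7 had 61.8 ± 1.72 CPM per kb of exon, Grin2c 36.2 ± 8.10, Gabrp 20.5 ± 4.08 and Chrna5 17.9 ± 1.25 (SD, n = 4). Gabrp and Chrna5 did not differ beyond their spread. Chrna1 had 2.70 ± 0.569 CPM per kb and ranked 23rd of the 100 genes, below Chrne with 8.96 ± 1.81 and Chrnb1 with 5.25 ± 1.11 on the same scale.

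Comparing mature with immature mTEC asks which receptor genes change as the cells mature. In the 4 control mice, 71 of the 99 genes with a count had all mature libraries above all immature ones and 2 the reverse. Over all Ensembl genes with a count these shares were 24.6% and 12.3%. In the 4 tKO mice, which the first comparison did not use, the numbers were 70 and 3 of 99, against 24.4% and 10.9% of all genes. In both sets of mice 64 genes were higher in every mature library and the same 2, Adra1a and Adrb1, in every immature library. These numbers come from full-depth libraries, of which the mature ones were deeper. They include genes near the detection limit, such as Chrnb3 with 2, 1, 1 and 1 counts in mature and 0 in immature control libraries. The shares over all genes were not matched for level. In these sorted bulk samples a gene read in fewer cells and a gene read at a lower level per cell cannot be told apart.

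Gene by gene, the quasi-likelihood test of edgeR was run over all genes. A gene was called where its p, adjusted by Benjamini-Hochberg, was under 0.05 and its fold change over 2. Of the 100 genes 44 passed the filter on low counts in control mice, of which 33 were called higher in mature and 2 (Adra1a and Adrb1) higher in immature mTEC. The call rates over all tested genes were 23.7% and 10.8%. In tKO mice 43 genes passed, 31 were called higher in mature and 1 (Glrb) higher in immature mTEC, at call rates of 23.2% and 11.5%. The calls higher in mature mTEC shared 29 genes, 87.9% of the control and 93.5% of the tKO calls. The median log2 fold change of the tested receptor genes was 2.52 in control and 2.31 in tKO mice, and that of all tested genes 0.02 and 0.04. Without the filter the median of all genes was 1.25 in control and 1.18 in tKO mice, so 0.02 and 0.04 are no baseline for genes with few counts. The filter favours a difference in a gene that passed through its mature libraries alone, so these counts describe the genes that passed and not the family as a whole. Among genes with at least 10 counts in every library, 6 of 11 were called higher in mature control mTEC and 3 of 9 in tKO mTEC, at call rates of 9.54% and 9.27% over all genes under that filter.

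**Figure D3:**
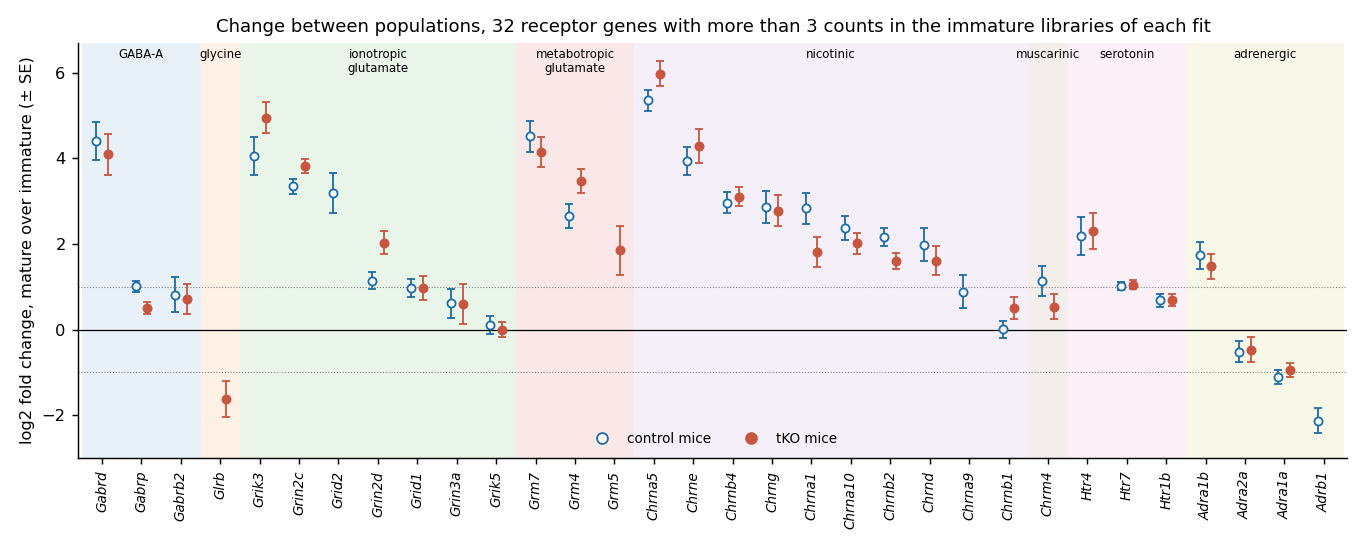
log2 fold change of mature over immature mTEC (y axis) in the 8 control libraries (open) and the 8 tKO libraries (filled) for 32 of the tested genes, grouped by family (x axis), without, among others, the 13 that had 3 or fewer counts in the immature libraries of a fit. Bars are standard errors derived from the F statistic of the fit, and dotted lines mark the 2-fold threshold. The nicotinic genes range from Chrna5 at 5.36 and 5.97 to Chrnb1 near 0, and adrenergic genes lie on both sides of 0.

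The receptor of skeletal muscle is built from Chrna1, Chrnb1, Chrnd and Chrng before birth, with Chrne in place of Chrng in the adult. Muscle genes are often switched on by MyoD-type factors at E-boxes, CANNTG with CAGCTG as the form they favour, and by ETS-type factors at the N-box CCGGAA. The promoter windows of 4 of the 5 genes, 250 bases before to 50 after the start in the RefSeq annotation of GRCm38.p6, are shown 5′ to 3′ because these genes make up the receptor that holds the myasthenia autoantigen. Capitals mark every CANNTG and CCGGAA on either strand.
Chrna1, chr2:73580289-73580588, minus strand: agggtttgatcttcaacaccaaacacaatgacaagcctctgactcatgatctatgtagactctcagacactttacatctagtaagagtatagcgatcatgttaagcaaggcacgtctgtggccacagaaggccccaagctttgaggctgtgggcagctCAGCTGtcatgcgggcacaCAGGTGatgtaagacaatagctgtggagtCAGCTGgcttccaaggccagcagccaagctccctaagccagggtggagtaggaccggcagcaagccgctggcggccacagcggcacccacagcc
Chrne, chr11:70619145-70619444, minus strand: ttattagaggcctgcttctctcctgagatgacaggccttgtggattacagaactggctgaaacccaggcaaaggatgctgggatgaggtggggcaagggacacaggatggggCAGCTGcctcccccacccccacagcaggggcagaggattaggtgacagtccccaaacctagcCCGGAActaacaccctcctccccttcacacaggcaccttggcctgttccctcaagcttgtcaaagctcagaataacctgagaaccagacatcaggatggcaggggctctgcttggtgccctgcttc
Chrng, chr1:87205561-87205860, plus strand: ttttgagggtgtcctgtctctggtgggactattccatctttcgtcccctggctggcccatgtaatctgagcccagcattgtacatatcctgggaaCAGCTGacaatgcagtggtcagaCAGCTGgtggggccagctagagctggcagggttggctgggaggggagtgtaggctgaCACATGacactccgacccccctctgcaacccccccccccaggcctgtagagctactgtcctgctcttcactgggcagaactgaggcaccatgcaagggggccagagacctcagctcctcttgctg
Chrnb1, chr11:69795888-69796187, minus strand: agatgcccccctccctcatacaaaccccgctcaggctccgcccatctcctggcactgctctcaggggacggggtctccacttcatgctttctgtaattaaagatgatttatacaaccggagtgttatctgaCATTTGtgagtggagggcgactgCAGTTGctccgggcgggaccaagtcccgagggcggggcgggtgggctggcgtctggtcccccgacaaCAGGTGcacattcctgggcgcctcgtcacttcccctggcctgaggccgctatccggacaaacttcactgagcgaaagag
The Chrna1 window held 2 CAGCTG, which begin 92 and 44 bases before the start, that of Chrng held 2, that of Chrne held 1 along with a CCGGAA, and that of Chrnb1 held 3 other CANNTG. Among 32851 windows of all genes, 16.3% held CAGCTG, 72.3% CANNTG, 14.9% CCGGAA and 13.6% TATAAA, searched on both strands, where each CAGCTG is also a CANNTG. Of the 85 windows found for 72 of the receptor genes, 11.8% held CAGCTG and 5.88% CCGGAA. A match in these letters is not a bound site.

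Chrna1 (ENSMUSG00000027107, GRCm38 chr2:73563215-73580338, minus strand) had counts in all 16 libraries and was higher in the mature library of every mouse. In control mice it had 44, 46, 62 and 52 counts in the mature and 3, 2, 1 and 7 in the immature libraries, or 11.8 ± 2.50 against 1.69 ± 1.65 CPM (SD, n = 4). In tKO mice it had 62, 51, 35 and 58 counts in the mature and 5, 4, 12 and 3 in the immature libraries, or 12.3 ± 1.95 against 3.57 ± 2.99 CPM. The groups did not overlap in either set of mice. The log2 fold change was 2.83 (SE 0.365, adjusted p = 8.92e-06, edgeR) in control and 1.81 (SE 0.355, adjusted p = 0.000253) in tKO mice, and leaving out any 1 library moved it to between 2.46 and 3.52 and between 1.597 and 2.51. The 12 counts of Rbfox2 tKO mouse 1 stood apart from the 3 to 5 of the other immature tKO libraries.

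The other muscle subunits fell into 2 patterns. Chrne, the adult subunit, had 81, 76, 66 and 43 counts in mature and 2, 3, 2 and 1 in immature control libraries, a log2 fold change of 3.94 (SE 0.325, adjusted p = 9.49e-08) in control and 4.29 (SE 0.391) in tKO mice. Chrng, the fetal subunit, had 30, 43, 39 and 32 counts against 2, 3, 1 and 3, and changed by 2.87 (SE 0.371) and 2.78 (SE 0.362). Chrnd had 29, 23, 27 and 32 counts against 6, 4, 1 and 2, and changed by 1.99 (SE 0.381) and 1.605 (SE 0.339). All of these were called in control and in tKO mice.

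Chrnb1 was the exception. It had 58, 56, 46 and 70 counts in mature and 34, 33, 23 and 19 in immature control libraries, or 13.3 ± 2.81 against 12.9 ± 1.43 CPM, and the groups overlapped. Its log2 fold change was 0.00 (SE 0.205, adjusted p = 0.987) in control and 0.50 (SE 0.249, adjusted p = 0.0862) in tKO mice. In immature cells it was the most abundant muscle subunit, at 5.09 ± 0.564 CPM per kb in control mice against 0.385 ± 0.376 for Chrna1 on the same scale.

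**Figure D4:**
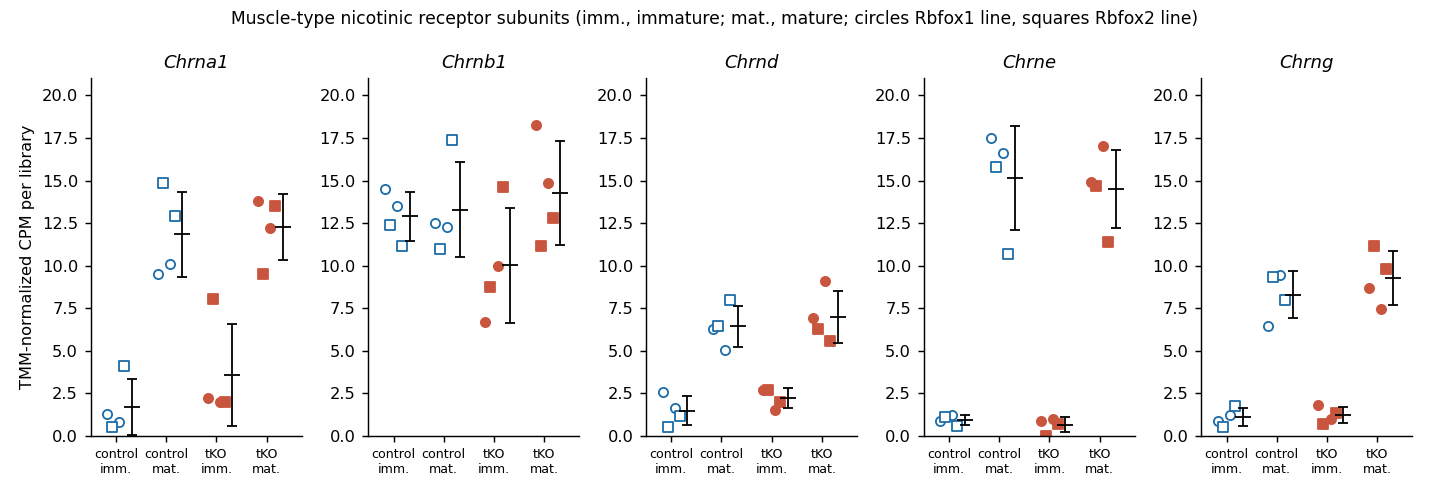
TMM-normalized CPM (y axis) of the 5 muscle-type nicotinic subunits in each library, by genotype and population (x axis). Open symbols are control, filled symbols tKO, circles the Rbfox1 and squares the Rbfox2 line, and the bar beside each group is its mean ± SD (n = 4). Chrna1, Chrnd, Chrne and Chrng are higher in mature libraries, while the Chrnb1 groups overlap.

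Markers of skeletal muscle did not move as a list with these subunits. Of 10 such markers 8 were tested in control mice, 2 were called higher in mature (Ttn and Mymk) and 3 higher in immature cells (Myog, Acta1 and Des), and their summed level was 196 to 201 CPM in mature and 228 to 321 in immature control libraries. The part that muscle-like cells play in the values of Chrna1 was not tested. Rapsn, which clusters the muscle receptor, was near the detection limit in both populations, at 0.677 ± 0.413 and 0.793 ± 0.561 CPM in control mice. Musk, the kinase of the junction, was called higher in immature control cells (log2 fold change −1.16, SE 0.296, adjusted p = 0.00323) but not in tKO mice (−0.76, SE 0.275, adjusted p = 0.0230), where it was under the fold threshold.

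Neuronal nicotinic subunits held the largest changes of the family. Chrna5, an accessory subunit, had 264, 277, 215 and 220 counts in mature and 6, 1, 2 and 2 in immature control libraries, and changed by 5.36 (SE 0.244, adjusted p = 2.53e-10) in control and 5.97 (SE 0.291) in tKO mice. It lies beside Chrna3 and Chrnb4 on chromosome 9, with gaps of 2332 and 1592 bases between the genes. Chrna3, the ligand-binding partner in autonomic ganglia, had 39, 27, 26 and 39 counts against 2, 1, 2 and 0, and changed by 3.54 (SE 0.482) in control mice. Chrnb4 had 177, 135, 142 and 145 counts against 14, 8, 11 and 3, and changed by 2.97 (SE 0.238). All 3 genes of the cluster were called in both sets of mice.

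Chrna2 was all but restricted to mature cells, with 88, 90, 96 and 81 counts in mature and 0, 0, 0 and 1 in immature control libraries. The ratio of its pooled levels was 170.3, with a 95% counting interval of 30.4 to 6744. Chrna4, which pairs with Chrnb2 in the most common receptor of the brain, had 46, 77, 44 and 32 counts against 1, 1, 0 and 0, a ratio of 47.7 (13.04 to 397). Chrnb2 itself had 107, 86, 122 and 108 against 16, 9, 11 and 8, and changed by 2.16 (SE 0.213), but 16.3% of its exon bases overlap Adar on the other strand. Whether counting used strand is not given, so this value is uncertain, as is that of Chrna10 (2.37, SE 0.274), which shares 39.0% of its exon bases with Art1. In all, 31 of the 100 genes share exon bases with another annotated gene, among them Grin2d (9.66% of its exon bases), Grm2 (9.604%) and Grid2ip (9.52%), each with an antisense gene. In all, 11 of the 13 tested nicotinic genes were called higher in mature control mTEC and 11 of 12 in tKO mTEC, and none lower, at call rates higher in mature mTEC of 23.7% and 23.2% over all genes. Genes with few counts in immature libraries entered these counts through their mature libraries.

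Among ionotropic glutamate genes Grin2c stood out by level. It had 931, 1052, 646 and 575 counts in mature and 63, 66, 20 and 9 in immature control libraries, or 182 ± 40.8 against 17.5 ± 11.1 CPM, and changed by 3.35 (SE 0.173, adjusted p = 8.09e-10) in control and 3.82 (SE 0.155) in tKO mice. Grin1, the obligate NMDA receptor subunit, had 69, 104, 60 and 67 counts against 3, 5, 0 and 1 and changed by 3.97 (SE 0.388), although 13.5% of its exon bases overlap its antisense gene Grin1os. The kainate receptor gene Grik3 changed by 4.06 (SE 0.447) with 63 to 140 counts in mature and 0 to 6 in immature control libraries. The AMPA receptor gene Gria1 changed by 3.59 (SE 0.457), with 35 to 50 counts against 0 to 4. Grin2d changed by 1.14 (SE 0.195) in control and 2.03 (SE 0.268) in tKO mice. Grid2ip had 38, 39, 23 and 18 counts against 2, 4, 1 and 3 and changed by 2.46 (SE 0.369) in control mice.

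Not every ionotropic glutamate gene changed. Grik5, a kainate receptor subunit, had 72, 79, 71 and 46 counts in mature and 45, 35, 17 and 23 in immature control libraries, or 15.3 ± 2.70 against 14.04 ± 4.11 CPM, and its groups overlapped. Its log2 fold change was 0.10 (SE 0.203, adjusted p = 0.671) in control and 0.00 (SE 0.175, adjusted p = 0.992) in tKO mice. Grid1 had log2 fold changes of 0.97 (SE 0.207, adjusted p = 0.000844) and 0.98 (SE 0.279, adjusted p = 0.00550), just under the fold threshold, and passed it under 8 of 15 other settings in control mice and 8 of 14 in tKO mice. Of the 19 genes 10 were tested in control mice, with 7 called higher in mature cells, and 9 in tKO mice, with 6, at call rates of 23.7% and 23.2% over all genes. Here too, genes with few counts in immature libraries passed the filter through their mature ones, so these rates are no baseline for them. Gria2, the AMPA subunit that limits calcium entry, had at most 2 counts in any library.

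Metabotropic glutamate receptors were low in immature cells. Grm4, which inhibits transmitter release, had 105, 131, 101 and 73 counts in mature and 12, 15, 2 and 3 in immature control libraries and changed by 2.64 (SE 0.283) in control and 3.47 (SE 0.274) in tKO mice. Grm7, of the same subgroup, had 89, 92, 62 and 58 counts against 3, 1, 0 and 2 and changed by 4.51 (SE 0.368). Grm2 had 47, 45, 67 and 32 against 1, 0, 1 and 0, a ratio of 45.8 (95% counting interval 12.5 to 381). Grm8 was not tested and had 5 to 16 counts in mature and 3 to 7 in the less deep immature control libraries, or 2.14 ± 0.963 against 2.76 ± 1.14 CPM. In tKO mice it was at 1.95 ± 0.633 against 3.35 ± 1.18 CPM, and the groups overlapped in both sets of mice.

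GABA-A subunits were split between genes read in both populations and genes with few counts in immature cells. Gabrp had 289, 243, 326 and 334 counts in mature and 57, 83, 64 and 71 in immature control libraries, or 69.1 ± 13.8 against 33.6 ± 7.17 CPM. Its log2 fold change was 1.01 (SE 0.120, adjusted p = 3.85e-06) in control and 0.50 (SE 0.144, adjusted p = 0.00602) in tKO mice, where the groups overlapped, and it was not called there. In control mice the call was lost without any 1 of 4 libraries, with values down to 0.91. Those were Rbfox1 control mature 2 and immature 2 and Rbfox2 control immature 1 and mature 2.

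The delta subunit gene Gabrd had 46, 75, 61 and 59 counts in mature and 0, 1, 2 and 2 in immature control libraries, and changed by 4.41 (SE 0.442) in control and 4.09 (SE 0.483) in tKO mice. The neighbours Gabrg3 and Gabra5 on chromosome 7 had 44 to 49 and 23 to 55 counts against 0 to 2 and 0 to 1, with ratios of 29.3 (95% counting interval 9.86 to 143) and 24.1 (8.11 to 118). Of the 19 GABA-A genes 8 were tested in each set of mice, and 7 were called higher in mature cells in control and 6 in tKO mice, at the same call rates of 23.7% and 23.2%. As for the nicotinic genes, those with few counts in immature libraries passed the filter through their mature ones, so these rates are no baseline for them.

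The glycine receptor genes were low in both populations. Glra1 and Glra3, both alpha subunits, had 6 to 15 and 8 to 18 counts in mature control libraries and 0 in all 4 immature ones, at least 5.92-fold and 7.35-fold higher when 0 is taken as 3 counts over the 4 libraries. Glrb, the beta subunit that binds gephyrin, went the other way in tKO mice, with 9, 2, 14 and 7 counts in mature and 13, 12, 8 and 8 in the immature libraries. Its log2 fold change there was −1.62 (SE 0.415, adjusted p = 0.00256). In control mice it did not pass the filter and the groups overlapped, with 4, 10, 6 and 10 counts against 7, 6, 4 and 10.

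Htr7 had the highest level per kb of exon of all 100 genes in both populations, while in CPM Grin2c was above it in mature mTEC of the Rbfox1 line, with means of 218 ± 12.4 and 209 ± 8.07 (SD, n = 4). Htr7 had 981, 994, 864 and 824 counts in mature and 293, 279, 167 and 133 in immature control libraries, or 210.2 ± 5.83 against 102 ± 21.4 CPM. Its log2 fold change was 1.03 (SE 0.0937, adjusted p = 2.72e-07) in control and 1.05 (SE 0.0994, adjusted p = 8.01e-08) in tKO mice, close to the fold threshold. It was under the threshold without Rbfox2 control immature replicate 1 or 2, with values of 0.98 and 0.93, and without Rbfox1 tKO immature replicate 3 or Rbfox2 tKO immature replicate 2, with 0.99 each. Htr1b had log2 fold changes of 0.68 (SE 0.143, adjusted p = 0.000735) and 0.70 (SE 0.140, adjusted p = 0.000314), below the fold threshold, and 18.0% of its exon bases overlap an antisense gene. Htr4, a receptor of the gut and brain, changed by 2.20 (SE 0.445) and 2.31 (SE 0.424) and was called in both. Htr1a had 12 to 30 and Htr2c 7 to 36 counts in mature control libraries and 0 in all 8 immature libraries, and were at least 13.4-fold and 12.8-fold higher in mature control cells.

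The dopamine receptor genes were low. Drd4 had 17, 28, 19 and 13 counts in mature and 0 in all 4 immature control libraries, at least 12.3-fold higher. Drd2 had 10 to 14 counts against 0 to 1, a ratio of 22.1 (95% counting interval 3.77 to 890). Drd5 had 2 to 9 counts against 0 to 6, and the groups overlapped. Among muscarinic genes, Chrm2, the receptor of the heart, had 13 to 19 counts in mature and 0 in all 4 immature control libraries, at least 9.43-fold higher. Chrm4 had log2 fold changes of 1.13 (SE 0.354, adjusted p = 0.0113) in control and 0.54 (SE 0.300, adjusted p = 0.125) in tKO mice. The control call was lost without Rbfox1 control immature 2, mature 3 or immature 3, with values of 0.92, 0.98 and 0.97. Chrm3, the receptor of glands and smooth muscle, did not pass the filter, and its libraries overlapped between populations.

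Adrenergic receptors stood on both sides. Adra1a, a receptor of smooth muscle, had 61, 48, 54 and 64 counts in mature and 74, 65, 50 and 43 in the less deep immature control libraries, or 13.1 ± 2.20 against 27.6 ± 2.72 CPM. Its log2 fold change was −1.11 (SE 0.164, adjusted p = 3.25e-05) in control and −0.95 (SE 0.162, adjusted p = 6.24e-05) in tKO mice, just short of the fold threshold, and no library overlapped in either. Without Rbfox1 control mature replicate 3 the control value was −0.99. Adrb1, the receptor of the heart, had 6, 9, 11 and 6 counts against 15, 16, 20 and 15, and changed by −2.13 (SE 0.292, adjusted p = 1.61e-05) in control mice. In tKO mice Adrb1 missed the filter, with 9, 8, 8 and 7 counts against 11, 9, 13 and 5, and without any 1 of the 8 libraries it passed and was called higher in immature cells.

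Adra1b was called higher in mature cells, at 1.74 (SE 0.321) and 1.48 (SE 0.293). Adra2a had log2 fold changes of −0.52 (SE 0.246, adjusted p = 0.0765) and −0.47 (SE 0.288, adjusted p = 0.163). Markers of other cells were also higher in immature libraries. In control mice 3 of 4 fibroblast, 3 of 3 endothelial and 4 of 5 tuft cell markers were called so, and the summed fibroblast level was 234 to 1305 CPM in immature and 302 to 373 in mature libraries. Their part in the values of Adra1a, Adrb1 and Glrb was not tested.

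Comparing tKO with control mice asks whether the knockout of Rbfox1 or Rbfox2 alters receptor genes, with Rbfox1 itself little lower in immature Rbfox1 tKO libraries. No receptor gene was called in any of the 4 comparisons. With 2 mice a condition this does not show that no gene changed. In Rbfox1 tKO mice 0 of all tested genes were called lower in either population, so Rbfox1 itself was not called. In mature mTEC 69 genes were tested for each line, and in immature mTEC 20. The call rate over all genes was 0.0166% for Rbfox1 and 0.0277% for Rbfox2 in mature and 0.0306% and 0.0536% in immature mTEC. At an unadjusted p under 0.05, edgeR gave 6 (Rbfox1) and 1 (Rbfox2) of the 69 genes in mature and 3 and 1 of the 20 in immature mTEC, against 3.35%, 5.34%, 5.90% and 6.25% of all tested genes. DESeq2 called 0 receptor genes in each.

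Chrna10 had 77 and 46 counts in control and 110 and 78 in tKO mature libraries of the Rbfox1 line (log2 fold change 0.70, SE 0.224, adjusted p = 0.9996). Gabrp had a log2 fold change of −0.32 (SE 0.116, adjusted p = 0.829) in mature mTEC of the Rbfox2 line. For Chrna1 it was 0.41 (SE 0.235, adjusted p = 0.9996) in mature mTEC of the Rbfox1 and −0.25 (SE 0.234, adjusted p = 0.957) in those of the Rbfox2 line, and did not pass the filter in immature cells.

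The difference between tKO and control mice in the change from immature to mature cells was tested for 53 receptor genes, and 0 had an adjusted p under 0.05, as over all 16454 genes (0.0%). At an unadjusted p under 0.05 there were 3 (5.66%), against 4.11% of all tested genes, and DESeq2 gave 0. Gabrp had the smallest p of the 3, with a difference of −0.53 (SE 0.209, adjusted p = 1.0). For Chrna1 the difference was −1.03 (SE 0.618, adjusted p = 1.0).

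A comparison of the 2 mouse lines, chosen after the data were seen, called a few receptor genes. It set the 4 mice of the Rbfox1 line against the 4 of the Rbfox2 line in each population, with genotype as a covariate. In mature mTEC 1 of 69 tested genes, Grid2ip, was called higher in the Rbfox1 line and 0 in the Rbfox2 line, at call rates of 0.794% and 0.25%. Its counts were 38 to 44 in the Rbfox1 and 15 to 23 in the Rbfox2 line, and its log2 fold change was 1.02 (SE 0.209, adjusted p = 0.00323). In control mice alone it was 0.73 (adjusted p = 0.195), and the call was also lost without Rbfox1 tKO mature 3 (0.97), Rbfox2 tKO mature 2 (0.93) or Rbfox2 control mature 2 (0.95). DESeq2 called 0 of the receptor genes in mature cells. At an unadjusted p under 0.05 there were 12 of the 69 genes (17.4%), against 27.9% of all tested genes.

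Grin2c differed in both populations. In mature mTEC it was at 218 ± 12.4 CPM in the Rbfox1 and 150.3 ± 7.28 in the Rbfox2 line (SD, n = 4), a log2 fold change of 0.52 (SE 0.0665, adjusted p = 5.60e-05), below the fold threshold and with no overlap of libraries. In immature mTEC it was at 22.6 ± 5.76 and 7.35 ± 2.86 CPM, a log2 fold change of 1.57 (SE 0.254, adjusted p = 0.000327). Grid1, a delta glutamate receptor, was also called higher in immature cells of the Rbfox1 line (1.46, SE 0.306, adjusted p = 0.00249), and Adra2a higher in those of the Rbfox2 line (−1.59, SE 0.259, adjusted p = 0.000361). These 2 of 20 and 1 of 20 tested genes stood against call rates of 3.15% and 1.91%. In control mice alone Grin2c was called, while the other genes were not, with Grid1 at 1.12 (adjusted p = 0.0713) and Adra2a at −0.90 (adjusted p = 0.109).

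**Figure D5:**
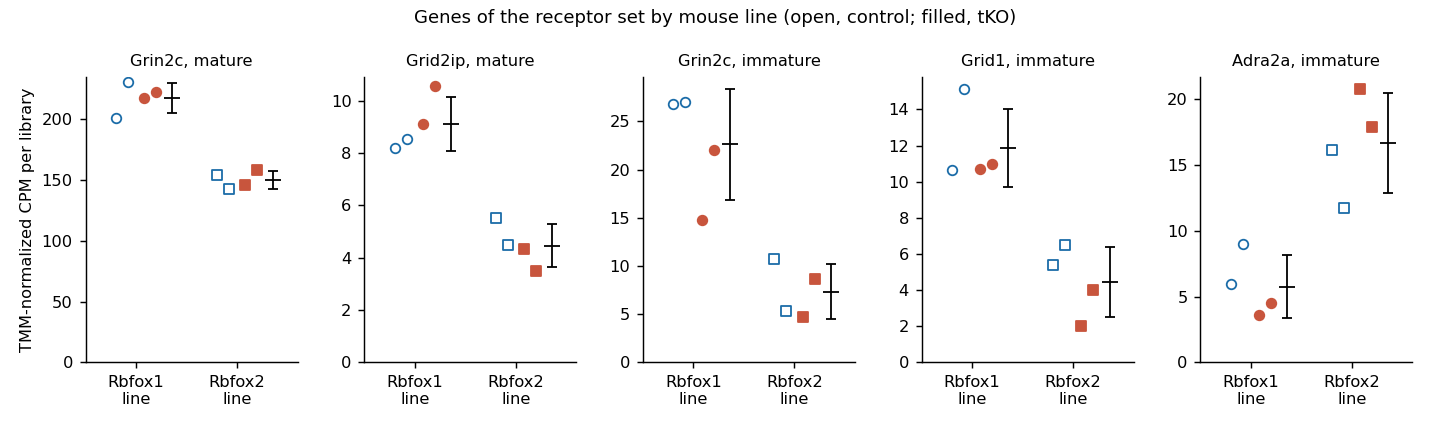
TMM-normalized CPM (y axis, from 0) by mouse line (x axis) of Grin2c and Grid2ip in mature and of Grin2c, Grid1 and Adra2a in immature mTEC. Points are libraries, open for control and filled for tKO mice, and bars are the mean ± SD of each line (n = 4). In each panel the libraries of the 2 lines do not overlap.

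The line, the floxed allele it carries and its breeding cannot be told apart. In immature libraries the summed level of fibroblast markers was 234 to 444 CPM in the Rbfox1 and 1145 to 1624 in the Rbfox2 line, and that of endothelial markers 19.2 to 51.5 and 57.1 to 177. Of 8 tested mTEC markers 2 were called higher in immature libraries of the Rbfox1 line, Aire with a log2 fold change of 2.71 (SE 0.179, adjusted p = 4.74e-08) and Cd80 with 1.72 (SE 0.231, adjusted p = 6.50e-05). Both were called higher in mature than in immature control cells, as were 23.7% of all tested genes. The other tested mTEC markers were not called between the lines. Fezf2 was at 0.52, Epcam at −0.004, Cd74 at −0.12, H2-Aa at −0.19, Krt5 at −0.39 and Krt14 at −0.62. The median of the 8 was −0.063. Of 4 tested neuroendocrine markers 1, Insm1, was also called higher in immature libraries of the Rbfox1 line, at 1.08 (SE 0.107, adjusted p = 2.95e-06). The summed level of that list overlapped between the lines, at 243 to 319 CPM in the Rbfox1 and 133 to 275 in the Rbfox2 line. Among skeletal muscle markers 1 of 7 tested in immature and 1 of 9 in mature libraries was called higher in the Rbfox1 line. Among neuron markers 1 of 5 tested was called higher in immature libraries of the Rbfox2 line. In mature libraries Aire differed by 0.995 (SE 0.0804, adjusted p = 2.64e-07), just under the fold threshold. The part of the cells that carry these markers in the values of Grin2c, Grid1 and Adra2a was not tested.

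Genes that work with these receptors were taken from a list of 77 that anchor receptors, assist them, or make, carry or break down transmitters. In control mice 64 were tested, 36 called higher in mature and 9 higher in immature cells. In tKO mice 63 were tested, with 32 and 8. These counts stand beside the same call rates of all genes as those of the receptors, and the same filter applies. Among them were 13 of 16 tested transporters and 6 of 8 tested enzymes of synthesis and 4 of 6 of breakdown called higher in mature control cells, and 1 of each lower. Slc6a3, the dopamine transporter, had 12.2 ± 0.971 CPM in mature and was at 0 in all 4 immature control libraries, as was Slc6a11, a GABA transporter with 9.78 ± 1.90 CPM. Slc17a6, a vesicular glutamate transporter, had 17.6 ± 4.597 CPM against 0.102 ± 0.204. Th, the first enzyme of dopamine synthesis, changed by 5.50 (SE 0.410, adjusted p = 3.28e-08), and Cacng5, an auxiliary subunit of AMPA receptors, had 6.57 ± 2.01 CPM against 0.102 ± 0.204.

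Genes that anchor receptors were split, with 5 of 20 tested called higher in mature and 6 higher in immature control cells. Nlgn2, the adhesion molecule of inhibitory synapses, changed by −3.34 (SE 0.172, adjusted p = 7.74e-10) in control and −3.22 (SE 0.145) in tKO mice. Agrn, the nerve-derived organizer of the neuromuscular junction, changed by −2.31 (SE 0.126) and −2.32 (SE 0.120). Homer3 and Grip1, scaffolds of glutamate receptors, changed by −1.93 (SE 0.175) and −1.52 (SE 0.236) in control mice. In tKO mice the transporters and enzymes with the largest changes were Pnmt, Slc18a2 and Slc6a13, with 16.9 ± 1.52, 30.1 ± 7.44 and 14.3 ± 2.95 CPM in mature cells and 0, 0.112 ± 0.223 and 0.125 ± 0.2498 in immature cells.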

How the data were processed

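RNA-seq counts of 16 libraries from 8 mice were used as deposited: the authors aligned reads to mm10 with HISAT2 2.1.0, removed duplicates with Picard 2.10.9, and counted reads per gene with featureCounts 1.6.0, with no normalization. According to the column names, libraries had been down-sampled before counting, to different numbers for mature and immature cells. The strand setting of featureCounts is not stated in what was read here. Of 89407 rows, the 53464 with Ensembl identifiers include the receptor genes, and assembled loci were kept in the fits and library sizes.

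The test was the quasi-likelihood one of edgeR 4.0.16 (R 4.3.3; TMM scaling, filterByExpr with a minimum count of 10, Benjamini-Hochberg adjustment over all tested genes), and genes were called at an adjusted p under 0.05 and a fold change over 2. The SE of a log2 fold change is its absolute value divided by the square root of the quasi-likelihood F statistic. Mature and immature cells were compared in the 8 control and in the 8 tKO libraries, with line as a covariate. tKO and control mice were compared within each line and population, and the difference of the mature-immature change was tested over all 16 libraries at an adjusted p under 0.05 alone. DESeq2 1.42.0, other scalings and filters, leaving out each library and a block were alternatives. The block was the mouse or, between tKO and control mice, the mouse number. Detection was counted after thinning without replacement (numpy 2.4.6, Python 3.11.15).

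CPM per kb used the union of exons of each gene. Where the immature libraries held 0 counts, a fold was computed against a floor of 3 counts over the 4 libraries, and where they held 1 to 3, the ratio of pooled levels is given with an exact 95% (Clopper-Pearson) interval, which covers counting error only.

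Mature and immature libraries of 1 number came from 1 mouse, so the block is a true pairing by design there. Their deviations from the condition means correlated at 0.102 to 0.197 over 10581 genes in each of the 4 conditions. Those of tKO and control mice of 1 number, which are separate mice, correlated at −0.0019 to 0.150. The 2 mice of a condition differ in sex, so these correlations cannot separate mouse from sex. The methods name sex-matched littermate controls. By the labels tKO and control mice of 1 number in a line share their sex, but nothing there marks them as littermates. Replicates are separate mice. Promoter windows of RefSeq were searched for motifs on both strands.

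Named genes were the 5 muscle subunits, the 3 genes of each family with the highest mean CPM, and up to 10 called genes with the largest change in each direction and comparison. Genes called between lines were named as well, with Gabre, at 0 throughout. Chrna10, Gria2, Grm8, Adra1b, Htr1a and Htr2c fall outside this rule and were chosen after their values were seen. Of the partner list, up to 5 called genes in each direction were named, along with the endplate genes Musk and Rapsn. The receptor genes, the partner and marker lists and the tests were chosen with earlier results of these data known. A few genes that this rule reaches are not reported here.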

Additional observations from a re-analysis of the deposited data

Results flagged for a closer look

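Each group of 4 libraries was examined for a library whose distance to its nearest neighbour took up most of the group's range (Dixon's criterion). This was done for receptor genes reached by the naming rule. Gria2 and Gabra6, which the report names outside that rule, were not among them. Of 169 groups 11 were picked out. For continuous, normally distributed values chance picks out about 1 in 20. A group with counts in 1 library alone is always picked, so that rate is no yardstick for groups of that kind. In mature control libraries Chrm2 had 4.72 CPM (19 counts) in Rbfox2 control mouse 2 and 2.85 to 3.11 CPM (13 to 14 counts) in the others. In immature tKO libraries Chrna1 had 8.05 CPM (12 counts) in Rbfox2 tKO mouse 1 and 1.99 to 2.23 CPM (3 to 5 counts) in the others.

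The other 9 were single immature libraries with 1 or 2 counts where the other libraries of the group had 0. Among control mice these were Chrna2 in Rbfox2 control mouse 2 (0.588 CPM) and Drd2 in Rbfox1 control mouse 3 (0.409 CPM). Among tKO mice they were Chrna2, Chrna3 and Grm2 in Rbfox1 tKO mouse 3 (0.999, 0.500 and 0.500 CPM), Gabra5 and Glra3 in Rbfox1 tKO mouse 2 (0.446 CPM each), and Grid2ip and Grin1 in Rbfox2 tKO mouse 2 (1.33 and 0.664 CPM).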

How the results depend on the processing

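The number of receptor genes called higher in mature mTEC depended on which genes could be tested. In control mice it was 33, and 63 without a filter, 61 with DESeq2 and 6 under a strict filter that asks each library for at least 10 counts. In tKO mice it was 31, and 69, 61 and 3 under the same settings. Leaving out 1 library gave 32 to 43 in control and 27 to 41 in tKO mice. Genes called higher in immature mTEC numbered 2 in control mice, 0 under the strict filter and 1 to 3 without 1 library, where Adra1a was lost without Rbfox1 control mature replicate 3 and Glrb was added without Rbfox2 control immature replicate 1. In tKO mice they numbered 1, and 3 without a filter, 3 with DESeq2, 0 under the strict filter, 2 in 1 fit of all 16 libraries and 2 to 3 without 1 library. All of these but the strict filter added Adrb1, and the 2 without a fold threshold were Glrb and Adra1a. Detection was 96.4 and 51.4 genes without thinning and 52.8 and 20.1 at a minimum of 5 counts in mature and immature libraries.

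With the mouse number as a block, which is also a block by sex within a line, the tKO comparisons stayed at 0. With the mouse as a replicate block the counts were 33 and 2 in control and 31 and 1 in tKO mice, and no call of these genes changed. The log2 fold change of Chrnb1 in control mice, near 0, was −0.0083 with that block and −0.16 to 0.11 without 1 library, below 0 without Rbfox2 control immature replicate 1 (−0.05), mature replicate 2 (−0.16) or immature replicate 2 (−0.08). That of Grik5 was −0.040 to 0.23 without 1 library, below 0 without the mature (−0.022) or immature (−0.040) library of Rbfox2 control mouse 1. In tKO mice that of Grik5 was −0.0049 in 1 fit of all libraries, and −0.089 to 0.073 without 1 library, with −0.072, −0.089 and −0.049 without Rbfox1 tKO mature replicate 2, Rbfox1 tKO immature replicate 3 or Rbfox2 tKO immature replicate 1.

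In the comparison of lines, Grid2ip in mature mTEC was not called with DESeq2 or in control mice alone, both 0 genes, and leaving out 1 library gave 0 to 2 genes. Without a fold threshold 3 genes were higher in the Rbfox1 and 1 in the Rbfox2 line, without a filter 1 (Gabra6) in the Rbfox2 line, and without 1 library 0 to 1. In immature mTEC the strict filter left 0 calls in each direction and control mice alone 1 and 0. Over 77 results for single genes, 1028 of 1082 recomputed values kept their direction and side of the thresholds. Scaling by library totals or DESeq2 size factors moved the median of all genes by less than 0.1. The causes of these changes, other than the number of genes or libraries that a setting leaves, were not tested.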
